A study of Caenorhabditis elegans with 10 samples.

Results

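Chromatin accessibility was compared between 2 post-embryonic life stages of wild-type (N2) Caenorhabditis elegans: larval stage 3 (L3), collected 36 h after egg lay, and the young adult, collected at 57 h. Each stage was represented by 1 list of ATAC-seq peaks that the authors made from 3 pooled biological replicates of synchronized whole worms. The 2 lists held 28199 of the 55893 peaks of the series, 13040 in L3 and 15159 in the young adult, and the remaining 27694 belonged to the early embryo. An L3 and a young adult peak were counterparts of each other when they overlapped over a share of at least 0.5 of either peak. An L3 peak with no counterpart is called lost and a young adult peak with no counterpart is called gained. Both words describe membership of a list. Because these lists pool the replicates, no spread between replicates could be measured and no test of the stages was possible here. Each share is therefore given with its exact Clopper-Pearson 95% interval, which covers counting error only and treats neighbouring peaks as independent. The paper did test L3 against young adult, and reports far fewer peaks with a significant change of accessibility than are lost or gained here. Lost and gained counts are therefore not counts of tested changes. The L3 libraries had been sequenced less deeply than those of the young adult, and read numbers are not part of the lists, so the lost and gained shares, the summit and width differences, the divided peaks and the spacing were also measured with the 13040 young adult peaks of highest -log10 q value. Runs, blocks, changes of rank and gene regions are given for the full lists. In whole-worm chromatin, a change of accessibility within cells and a change in the number of cells of a type cannot be told apart.

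In ATAC-seq the transposase Tn5 inserts sequencing adaptors into DNA that is not wrapped in nucleosomes, so that peaks mark promoters, enhancers and other open sites. Between L3 and adulthood the worm passes through its last larval stage and its last molt, the vulva and other adult tissues are completed, and the germline grows and starts to make gametes. Worm autosomes have gene-dense centres, and arms that are richer in repeats and heterochromatin. The X chromosome carries many genes used in somatic tissues and is largely silent in the germline.

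Several of the regions that differed between the lists had been cloned by the study into reporter constructs. The genomic parts of the primers that bound 6 of these fragments are printed first, because they are the designed sequences that define the cloned fragments. By the paper's methods the fragments also took in flanking sequence, so they extend beyond the candidate enhancer peaks described further on. The regions near nhr-25, mlt-8, gei-13 and swip-10 had a peak in the L3 list alone, and those near dcs-1 and mltn-12 had one in the young adult list alone. The paper reports specific reporter expression in worms from the regions near nhr-25, mlt-8, gei-13 and swip-10. Vector and restriction-site tails were removed, and the primers were not placed on the ce10 genome here.
nhr-25 forward (chromosome X): tctacaaagggcgtttttcc
nhr-25 reverse (chromosome X): ttgatcccttccactgttcc
mlt-8 forward (chromosome II): ttgtctacgtacacttcaaacttaaaa
mlt-8 reverse (chromosome II): tcgtaaatcttcaatgaaataagaaa
gei-13 forward (chromosome III): tcaaatgccgtagaaaaagaaa
gei-13 reverse (chromosome III): tccgctttgtggacatacaa
swip-10 forward (chromosome X): ttgaaaatctatccaatgtagtgttg
swip-10 reverse (chromosome X): ttgttacaaaagattcctgcgtta
dcs-1 forward (chromosome V): tttttaagggaatttggctttt
dcs-1 reverse (chromosome V): caagtttcgcacaatagtaccg
mltn-12 forward (chromosome IV): tgatcttcctgattctcctcttg
mltn-12 reverse (chromosome IV): agactcgacacgaaggatcaa

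The X chromosome gained a smaller share of its peaks than any autosome, while its lost share lay within the range of the autosomes. Of all L3 peaks 27.3% were lost, and of all young adult peaks 38.1% were gained. On X, 788 of 2730 L3 peaks were lost (28.9%, 27.2 to 30.6), against 2766 of 10308 on the autosomes (26.8%, 26 to 27.7), where the share ran from 24.2% on I to 30.1% on II. On X, 900 of 2809 young adult peaks were gained (32.0%, 30.3 to 33.8), against 4874 of 12347 on the autosomes (39.5%, 38.6 to 40.3). The interval for X lay below those of all 5 autosomes, whose gained shares ran from 38.4% on IV to 40.7% on V.

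With equal numbers of peaks, 31.2% of L3 peaks were lost and 32.3% of young adult peaks were gained, and X was the chromosome on which losses most outnumbered gains. There, 903 L3 peaks were lost and 638 young adult peaks were gained, or 0.707 gained for each lost. On chromosome II, 715 were lost and 675 gained. On the other 4 autosomes gains outnumbered losses, from 1.07 per loss on V to 1.32 on I. The share of each list that lay on X fell accordingly, from 20.9% of L3 peaks to 18.6% of as many young adult peaks (18.5% of the full list).

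**Figure D1:**
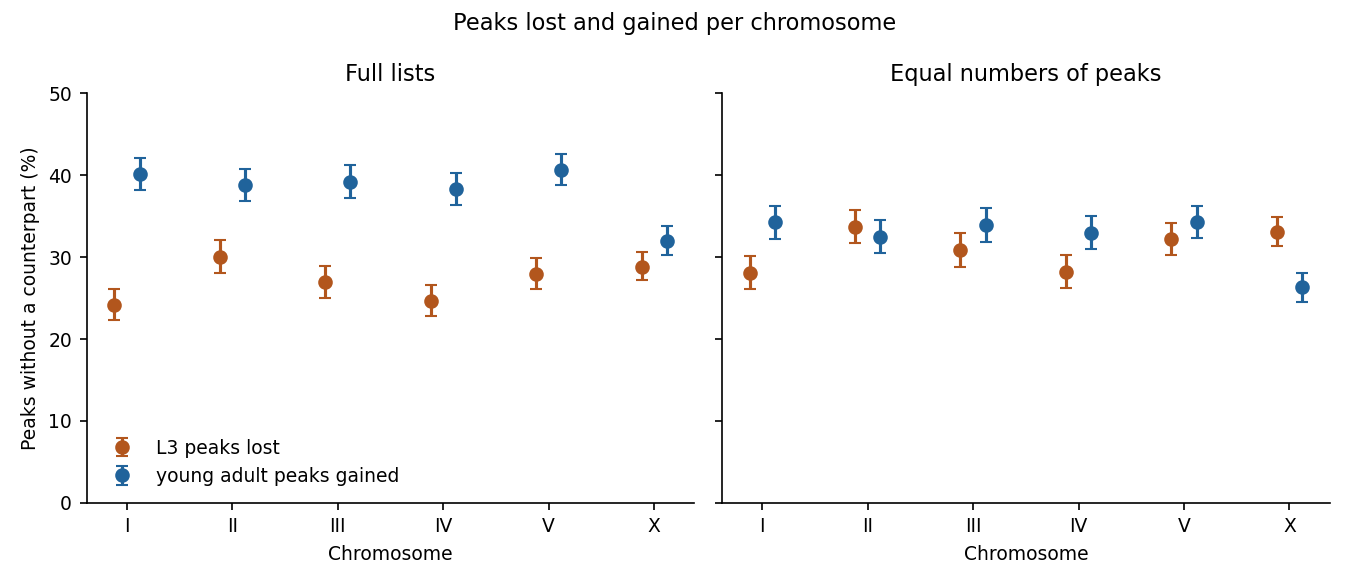
Share of L3 peaks lost and of young adult peaks gained on each chromosome, in % of the peaks of that chromosome in that list, for the full lists and for equal numbers of peaks. Points are shares and bars exact 95% intervals. The gained share on X, 32.0% and 26.3%, lies below every autosome in both plots.

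This difference was present among strong and weak peaks alike. Fold enrichment is the peak caller's ratio of signal at the summit to the local background of the same stage. It ranked the peaks of a list, which was cut into 10 deciles of equal size. In the 5 stronger deciles of the young adult list 13.4% of X peaks were gained (11.7 to 15.2) against 19.0% of autosomal ones (18.0 to 20.0). In the 5 weaker deciles the shares were 53.1% (50.4 to 55.8) and 59.4% (58.2 to 60.7). The gained share was higher on X in none of the 10 deciles of the list, and in 1 of 10 with equal numbers. For losses, X and autosomes differed in the weaker deciles of the L3 list, 48.5% (45.7 to 51.3) against 41.4% (40.1 to 42.7), and had overlapping intervals in the stronger ones, 12% (10.4 to 13.8) against 11.7% (10.8 to 12.6).

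Each chromosome was next divided into 3 parts of equal length, called left arm, centre and right arm. On the autosomes the centres lost slightly more and gained slightly less than the arms. In the centres 1028 of 3630 L3 peaks were lost (28.3%, 26.9 to 29.8), and in the arms 1738 of 6678 (26%, 25.0 to 27.1). In the centres 1524 of 4090 young adult peaks were gained (37.3%, 35.8 to 38.8), and in the arms 3350 of 8257 (40.6%, 39.5 to 41.6). The gained intervals did not overlap between centre and arms, and the lost ones overlapped narrowly. With equal numbers the lost shares were 32.6% (31.1 to 34.1) in the centres and 29.7% (28.6 to 30.8) in the arms, and the gained shares 31.1% (29.6 to 32.7) and 34.8% (33.7 to 35.9), so that neither pair of intervals overlapped.

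The pattern was not shared by all chromosomes. With equal numbers, the peak count fell in the centres of II, V and X and, by less, of III. The centre of X went from 876 to 713 peaks, a change of -18.6%, the centre of II from 739 to 643 (-13%), and the centre of V from 869 to 757 (-12.9%). The centre of III went from 684 to 665 peaks, or -2.78%. Chromosomes I and IV had more peaks in their centres in the young adult, 739 against 677 and 690 against 661. All 10 autosome arms had more peaks in the young adult than in L3, whereas both arms of X had fewer. These falls depended on the equal numbers. In the full lists only the centre of X fell, from 876 to 840 peaks. The arms of X then rose from 901 to 964 and from 953 to 1005. The centres of II, III and V rose from 739 to 746, from 684 to 767 and from 869 to 913.

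**Figure D2:**
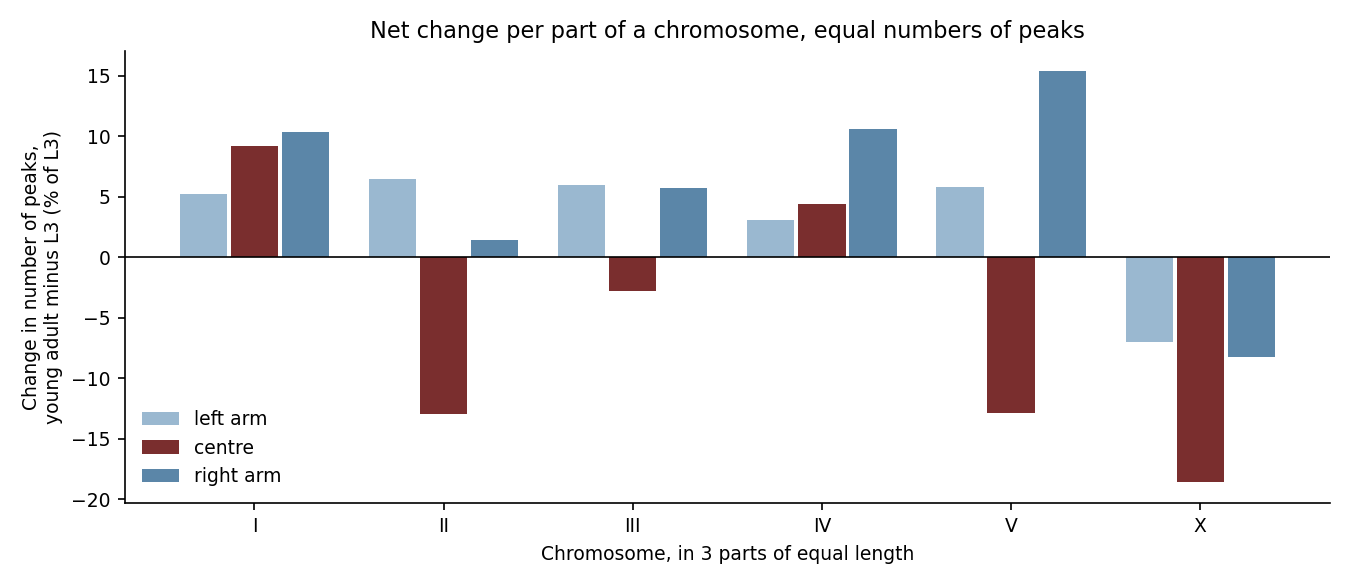
Net change in the number of peaks in each part of a chromosome with equal numbers of peaks in the lists, as young adult minus L3 in % of the L3 number. Bars fall below 0 in all 3 parts of X and in the centres of II, III and V, and the tallest bar above 0 is the right arm of V at 15.4%. In the full lists, which are not drawn, only the centre of X fell.

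The right arm of V had the highest gained share of the 18 parts, 361 of 762 young adult peaks (47.4%, 43.8 to 51.0), or 41.8% (38.0 to 45.7) with equal numbers. The lowest was in the centre of X, 246 of 840 (29.3%, 26.2 to 32.5), or 22.9% (19.8 to 26.1). Among lost shares the range was narrower, from 22.2% (18.7 to 26) in the right arm of IV to 31.5% (28.2 to 35.0) in the centre of II. In blocks of 500 kb with at least 20 peaks, the lost share had a median of 26.2% over 198 blocks and a range of 7.69% to 52%, and the gained share a median of 38.2% over 202 blocks and a range of 17.8% to 78.3%. The mitochondrial genome held 2 L3 and 3 young adult peaks and was left out of these parts.

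Strong peaks were nearly all retained, and the loss of a peak went with low enrichment. In the strongest decile of the L3 list, 4 of 1304 peaks were lost (0.307%, 0.0836 to 0.784), and in the weakest decile 634 (48.6%, 45.9 to 51.4). In the young adult list 34 of the 1516 strongest peaks were gained (2.24%, 1.56 to 3.12) and 1136 of the 1515 weakest (75%, 72.7 to 77.1). Over the deciles between them both shares grew at each step. With equal numbers the curves nearly met: the weakest deciles had 57.8% lost (55.1 to 60.5) and 63.7% gained (61.0 to 66.3).

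**Figure D3:**
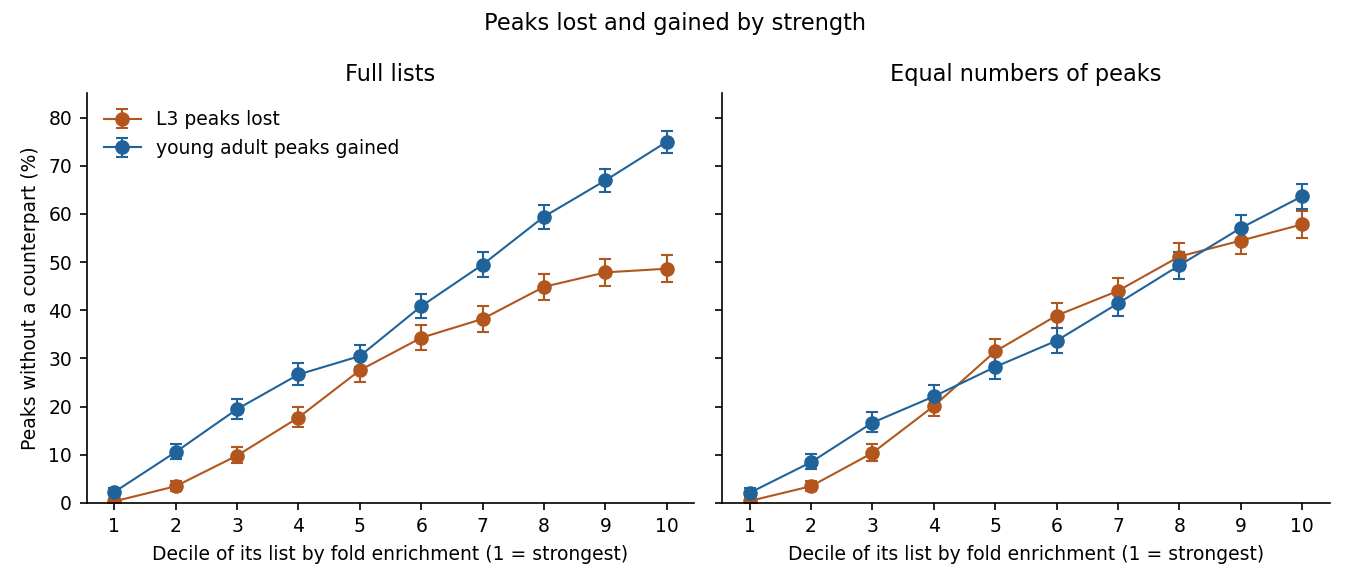
Share of peaks without a counterpart in each decile of the list by fold enrichment, from the strongest (1) to the weakest (10), for the full lists and for equal numbers. Points are shares in % and bars exact 95% intervals. Lost shares go from 0.307% to 48.6% and gained shares from 2.24% to 75% in the full lists.

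Lost and gained peaks were also narrower and less often shared with the embryo. The median width was 242 bp for lost L3 peaks and 307 bp for L3 peaks with a counterpart, and 252 and 310 bp for gained and other young adult peaks. An early embryo counterpart was present for 2131 of 3555 lost peaks (59.9%, 58.3 to 61.6), against 7825 of 9485 shared L3 peaks (82.5%, 81.7 to 83.3). For gained peaks it was present for 3147 of 5776 (54.5%, 53.2 to 55.8), against 7719 of 9383 shared ones (82.3%, 81.5 to 83.0). With equal numbers in all 3 lists the gap widened, to 32.0% (30.6 to 33.5) of lost against 64.4% (63.4 to 65.4) of shared L3 peaks and 25.4% (24.1 to 26.8) of gained against 64.5% (63.5 to 65.5) of shared young adult peaks. In the full lists, peaks seen in neither of the other stages numbered 1424 in L3 and 2629 in the young adult. With equal numbers, 2766 L3 and 3137 young adult peaks had no counterpart in either of the other lists. The early embryo list was then cut from 27694 to 13040 peaks. These larger counts therefore include peaks that have a counterpart in the full lists. Width and enrichment moved with these shares, and their part in them was not tested.

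Few lost and gained peaks were borderline cases of the overlap rule. Of the lost peaks 165 (4.64%) touched a young adult peak by less than the overlap required, and of the gained peaks 313 (5.42%) touched an L3 peak. The nearest young adult summit lay a median of 1714 bp from a lost summit, and the nearest L3 summit 2042 bp from a gained one. In all, 1250 lost peaks (35.2%) and 1906 gained peaks (33.0%) had a summit of the other list within 1 kb. Among these were all 249 lost (7.00%) and 527 gained peaks (9.12%) that directly adjoined a shared peak of their own list. A lost and a gained summit within 1 kb of each other occurred for 392 of the lost peaks (11%).

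Where both stages had a peak, its summit stayed almost in place. The 8562 one-to-one pairs, in which each peak was the only counterpart of the other, took in 65.7% of L3 and 56.5% of young adult peaks. Their summits were a median of 8 bp apart (interval of the median 8 to 8), with quartiles of 4 and 17 bp. The distance was at most 10 bp in 58.8% of pairs, at most 25 bp in 85.7% and at most 50 bp in 95.5%. Summits coincided in 278 pairs (3.25%) and lay over 150 bp apart in 47. The young adult summit had the higher coordinate in 4152 pairs and the lower in 4132, so no direction was preferred. The median was 8 bp on each of the 6 chromosomes.

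Summit positions were tighter at strong peaks. Sorted by the mean of the L3 and young adult ranks, the strongest decile of pairs had a median distance of 5 bp (5 to 6) and the weakest 15 bp (14 to 17). Sorting by the rank in L3 alone gave 6 and 18 bp, and sorting by the rank in the young adult alone gave 6 and 17.5 bp. The greatest distance of the 8562 pairs was 328 bp, at chrIII:5964445-5964834 in L3.

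Shared peaks had little net change in width, with single pairs changing in both directions. The young adult peak was a median of 3 bp narrower, a change of -3 bp (-4 to -2), with quartiles of -36 and 29 bp, and it was wider in 3788 pairs (44.2%) and narrower in 4543 (53.1%). A young adult peak over 1.5 times wider was seen in 483 pairs (5.64%), and an L3 peak over 1.5 times wider in 345 (4.03%). The left and right edges moved by a median of 14.5 and 15 bp, with signed medians of 0 at both. Narrowing was more common on X, where the median change was -9 bp (-11 to -7) and 38.0% of pairs were wider, than on any autosome, where medians ran from -3 to 0 bp. In autosome centres it was -6 bp (-8 to -5), and in the left and right arms 0 (-2 to 0) and 1 bp (0 to 3).

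**Figure D4:**
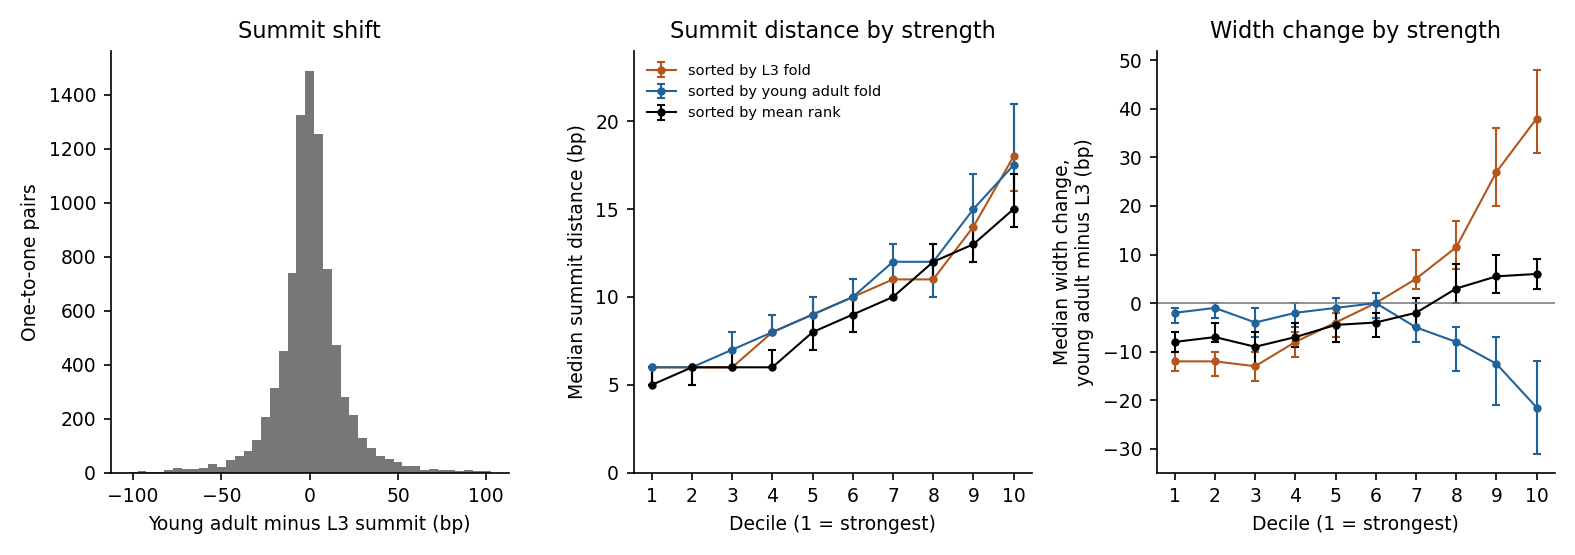
One-to-one pairs of peaks. Left, number of pairs by young adult minus L3 summit position in bp, with 106 pairs over 102 bp not drawn. Middle and right, median summit distance and median width change in bp by decile of strength (1 = strongest), with 95% intervals of the median, for pairs sorted by L3 fold, by young adult fold and by the mean of both ranks. Distances rise in all 3 sortings, while the width change of weak pairs is 38 bp when sorted by L3 and -21.5 bp when sorted by young adult.

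Width change by strength depended on which stage did the sorting. Pairs in the weakest L3 decile were wider in the young adult by a median of 38 bp (31 to 48), and those in the weakest young adult decile narrower, with a change of -21.5 bp (-31 to -12). Sorted by mean rank, the median went from -8 bp (-10 to -6) in the strongest decile to 6 bp (3 to 9) in the weakest. Across the 8562 pairs, ranks of fold enrichment in L3 and the young adult had a Spearman coefficient of 0.788 and widths one of 0.707. These coefficients run over peaks, which are not replicates, and the lists share the peak caller and its settings. Of the 1186 pairs whose L3 peak was in the top decile of its list, 972 (82.0%) were also in the top decile of the young adult list.

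With an overlap share of 0.5 of either peak, few peaks were divided between stages, and when they were, a summit was usually retained. Of 9485 L3 peaks with a counterpart, 241 had 2 or more (2.54%, 2.23 to 2.88), 235 of them 2 and 6 of them 3. Of 9383 young adult peaks with a counterpart, 338 had 2 or more L3 counterparts (3.60%, 3.23 to 4.00), 327 with 2 and 11 with 3. Divided L3 peaks were wide, with a median of 462 bp against 304 bp for the other shared L3 peaks, and so were divided young adult peaks, with 495 against 306 bp. In 222 of the 241 and 305 of the 338, the counterparts were sub-peaks of a single caller peak, which the authors had divided between neighbouring summits. The nearest counterpart summit lay within 25 bp in 182 (75.5%) and 260 (76.9%) of the cases. Among one-to-one pairs the share was higher, 85.7%, although divided peaks offered 2 or 3 summits to choose from. With equal numbers, 196 L3 and 327 young adult peaks were divided. These counts rested on the overlap rule: with any overlap of 1 bp they were 1426 and 1407, so that L3 peaks were then divided slightly more often, with adjoining peaks joined they were 98 and 176, and with a share of 0.5 of both peaks required they were 1 and 1.

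The strongest peak with 3 counterparts in L3 was at chrIII:6887640-6888118, with a fold of 8.90. Its summit lay close to that of the first young adult counterpart, chrIII:6887653-6887904 with a fold of 9.22, and the other two were weak, at 1.91 and 2.04. In the opposite direction, the young adult peak at chrIII:8417059-8417993, with a fold of 11.4 and a width of 935 bp, overlapped 3 adjoining L3 peaks with folds of 6.96, 8.75 and 9.35. The first case was thus a strong peak with 2 weak shoulders, and the second a broad site with 3 summits of similar strength.

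Peaks stood closer together in the longer young adult list, and no closer when the numbers were made equal. Neighbouring L3 summits were a median of 3208 bp apart (3093 to 3378), and young adult ones 2787.5 bp (2671 to 2898). With equal numbers the young adult median was 3413 bp (3255 to 3541), an interval that overlaps that of L3. When the equal number was chosen by fold the median was 3611.5 bp (3478 to 3786), and the intervals did not overlap. In the full lists the median was lower in the young adult on all 6 chromosomes, by least on X, with 3158 bp (2936 to 3387) against 3242 bp (2958 to 3509), and on I it was 2575 bp (2313 to 2828) against 3313 bp (2987 to 3632). With equal numbers, the widest young adult spacing was on X, at 3745.5 bp (3395 to 4077), and on V, at 3729 bp (3401 to 4124). The L3 list held 1646 peaks that adjoined the previous one (12.6%), the young adult list 2336 (15.4%), or 1867 of its top 13040 (14.3%). The longest stretch without a summit was 240 kb at L3 and 249 kb in adults, at both stages on chromosome V.

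Most lost and gained peaks lay next to another of their kind. Such neighbours also arise when peaks are in random order, since 27.3% of all L3 peaks were lost and 38.1% of young adult peaks gained. Whether they were more frequent than that was not tested. A run is a stretch of consecutive peaks of a list with no counterpart. Of 2350 lost runs 1565 were a single peak (66.6%), and of 3028 gained runs 1680 were (55.5%), but runs of 2 or more took in 1990 of 3555 lost peaks (56.0%) and 4096 of 5776 gained peaks (70.9%). Runs of 5 or more numbered 33 for lost peaks, with 196 peaks, and 172 for gained peaks, with 1083. The 3 longest lost runs had 9 peaks each. They spanned chrII:11063751-11086966, chrX:5854795-5896068 and chrX:11127494-11197946, with folds from 1.83 to 3.82, and the last of them held 4 young adult peaks between the lost ones. The longest gained run had 21 peaks in 23.8 kb, at chrX:5093619-5117385, with folds of 1.44 to 2.49, of which 1 had an embryonic counterpart, and 2 L3 peaks lay inside its span. The other two were 14 peaks at chrI:13756850-13836617 and 13 at chrX:3555937-3573342, with folds up to 4.79 and 4.58. X thus held long runs in both directions, although its gained share was the lowest.

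The strongest lost peak was at chrI:13417118-13417827, with a fold of 9.67 and rank 459 of 13040 in L3. The nearest young adult summit lay 5897 bp away. The other peaks of the 10 strongest that were lost had folds from 6.22 to 8.32, on chromosomes II, III, IV, V and X. The second and the fifth, chrIV:14838216-14838684 and chrIV:14833516-14833667, were neighbours in the right arm of IV with folds of 8.32 and 6.45. None of these 10 touched a young adult peak, and 8 of the 10 had an early embryo counterpart. The last of the 10, chrX:2116353-2116706, was at swip-10 (described with the gene regions).

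Gained peaks reached higher ranks. The strongest was at chrV:12637130-12637767, with a fold of 12.4 and rank 131 of 15159, and the nearest L3 summit lay 2550 bp away. Folds of the other nine ran from 7.29 to 9.42. The second was at dcs-1 and the ninth at Y73B6A.1. Of the 10, 7 had an early embryo counterpart.

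Among these 10 gained peaks, 2 were at the edge of the overlap rule. The third, chrII:2556133-2556631, had a fold of 9.12, and its summit was 2 bp from an L3 summit with a fold of 4.84. The L3 peak, chrII:2556402-2556973, covered 46.1% of it, since the young adult site had been divided in 2 and the L3 site had not. The seventh, chrIV:7253111-7253474, met the L3 peak chrIV:7253473-7253710 by 2 bp. That L3 peak carried the letter b of a divided caller peak whose other sub-peak is not among the 13040. In the L3 list 1072 of 2347 divided caller peaks lacked at least 1 letter, and 355 of the 5776 gained peaks (6.15%) lay within 500 bp of such a peak. In the young adult list 1444 of 3084 did, with 276 of the 3555 lost peaks (7.76%) within 500 bp.

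Some pairs changed greatly in rank. Of the 8562 pairs, 1104 moved upward by over 25% of the list and 556 moved downward by as much. The largest rise was at chrIV:11025987-11026296, the weakest L3 peak of all with a fold of 1.27 and rank 13040. Its young adult counterpart had a fold of 6.48 and ranked 1275 of 15159, with summits 48 bp apart. At chrII:1046995-1047278 the fold went from 1.88 to 6.15 and the rank from 12525 to 1439. The 5 largest rises included 2 pairs on IV and 1 each on II, III and X. The young adult peak was wider in all 5, for example 479 against 310 bp at the first. At the third, chrIV:15234512-15234711, the summits lay 188 bp apart.

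Of the 5 largest falls, 3 were on X, which held 1743 of the 8562 pairs, and 5 pairs are too few to show a pattern by chromosome. The first, at chrIII:5964445-5964834, went from a fold of 4.53 and rank 3300 in L3 to 1.75 and rank 14739, and its summits were the most distant of all pairs. At chrV:14139358-14139913 the fold went from 3.82 to 1.59 and the width from 556 to 262 bp. The 3 pairs on X had L3 folds of 3.84 to 4.64 and young adult folds of 1.81 to 2.02, with summits 6 to 26 bp apart.

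Gene names could be given only to regions that the study itself named. These were 27 regions, among them candidate enhancers, some of which the study had picked for a difference between these same stages, so the counts are no independent evidence of a direction. Both lists had a peak in 6 of them, L3 alone in 7, the young adult alone in 8, and neither in 6. All 33 names in the region list were matched to a RefSeq gene on the same chromosome (WBcel235). The folds below are each relative to the background of their own stage.

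Of the 7 regions with a peak in L3 alone, that at swip-10 was the strongest. swip-10 acts in glia to restrain dopamine neurons. Its region held 2 adjoining L3 peaks, chrX:2116353-2116706 with a fold of 6.22 and chrX:2116707-2117003 with a fold of 4.78, and the nearest young adult peak lay 7844 bp away. Across a window of 8.25 kb around the gene the young adult list held no peak. Both L3 peaks had embryonic counterparts.

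nhr-25 encodes a nuclear hormone receptor needed for molting and for the epidermis. Its candidate enhancer, chrX:13014304-13014628, had an L3 peak with a fold of 2.68 and rank 8131 and no early embryo peak, and the nearest young adult peak lay 5281 bp away. In the 9 kb window around the gene, L3 had 4 peaks and the young adult 2. The pair at the L3 peak chrX:13007929-13008710 had a fold of 4.34 at L3 and of 3.72 in adults, and the pair at chrX:13008830-13009136 had 2.71 and 1.92. A further L3 peak, chrX:13009376-13009900, with a fold of 3.19, had no counterpart. Peaks covered 1939 bp of the window at L3 and 872 bp in adults.

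mlt-8, a gene required for molting, had an L3 peak at chrII:574138-574430 with a fold of 3.20. In its window of 11.7 kb there was no shared peak at all: 2 L3 peaks were lost, and 3 adjoining young adult peaks, with folds of 2.30 to 2.75, were gained. At gei-13, named for the binding of its product to GEX-3, the L3 peak chrIII:9646331-9646662 had a fold of 2.67. In that window of 19.1 kb 6 of 9 L3 peaks were lost and 2 of 4 young adult peaks were gained. There were 2 shared sites in it, which differed in opposite directions. At chrIII:9640956-9641259 the fold was 4.01 at L3 and 2.89 in adults. At the other site the L3 peaks chrIII:9638084-9638413 and chrIII:9638414-9638626, with folds of 2.64 and 2.57, met a single young adult peak, chrIII:9638114-9638668, with a fold of 4.17. So the windows of nhr-25, swip-10 and gei-13 held more L3 than young adult peaks, and that of mlt-8 held different ones. Over all peaks 27.3% were lost and 38.1% gained. These windows held few peaks and lie at regions that the study had picked, so their counts were not tested against those shares.

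Peaks of the L3 list alone were also present at lon-8, which regulates body length, at Y48G8AL.15 and at Y17D7C.1. The lon-8 region held 2 L3 peaks, the stronger at chrV:18003711-18004033 with a fold of 3.20, and the nearest young adult peak lay 26714 bp away. Y48G8AL.15 had a fold of 3.78 at chrI:1255919-1256385. The peak at Y17D7C.1, chrV:18706433-18706628, had a fold of 2.38 and lay 509 bp from the nearest young adult peak.

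Among the 8 regions with a peak in the young adult alone, dcs-1 stood highest. dcs-1 encodes the scavenger decapping enzyme, which breaks down the cap left after messenger RNA decay. At chrV:20088321-20088925 the young adult had a peak with a fold of 9.42 and rank 427 of 15159, and a second named region close to it, at chrV:20089753-20090143, held 2 more with folds up to 2.79. The nearest L3 peak lay 36870 bp from the first, and the early embryo had none in either region. At Y73B6A.1 the young adult peak chrIV:6664238-6664728 had a fold of 7.56, with the nearest L3 peak 8132 bp away and no embryonic one.

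Regions at csn-3, a subunit of the COP9 signalosome, and at mltn-12 had young adult peaks of middle strength. The csn-3 region held 2, the stronger at chrIV:195434-195713 with a fold of 4.76, and mltn-12 held 1 at chrIV:8994558-8994895 with a fold of 4.79. At jmjd-3.1, which encodes a demethylase of repressive histone H3 methylation, the young adult peak chrX:8575917-8576151 had a fold of 3.07 and the nearest L3 peak lay 1632 bp away. ergo-1 encodes an Argonaute protein that binds small RNAs. Its region held 3 young adult peaks, the strongest at chrV:1013555-1013777 with a fold of 2.93. The weakest of the 8 was bed-1, at chrV:19120361-19120642, with a fold of 2.19.

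**Figure D5:**
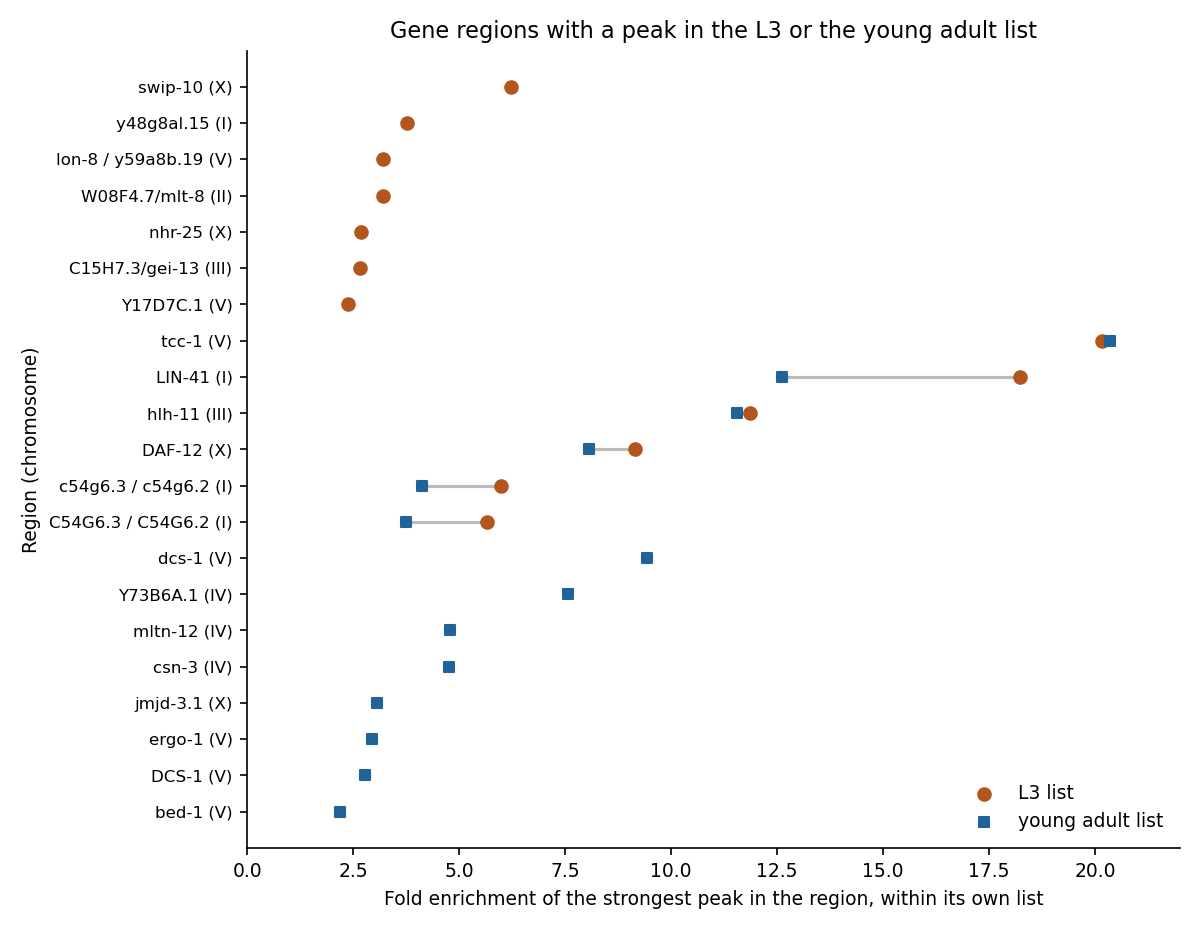
Fold enrichment of the strongest peak in each of the 21 named gene regions with a peak in at least 1 list, for L3 and the young adult. A row with 1 symbol has a peak in that list alone. The 7 rows with L3 alone run from 2.38 at Y17D7C.1 to 6.22 at swip-10 and the 8 with young adult alone from 2.19 at bed-1 to 9.42 at dcs-1.

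The 6 regions open at both stages kept their summits within 33 bp. The region of tcc-1, which encodes a protein with transmembrane and coiled-coil parts, ranked 5 in L3 and 3 in the young adult, with folds of 20.2 and 20.3 and summits 4 bp apart. At hlh-11, a basic helix-loop-helix transcription factor, folds were 11.9 and 11.6 and summits 1 bp apart. At lin-41, a heterochronic RNA-binding protein that is present in early larvae and recedes as adult fates are taken on, folds were 18.2 at rank 10 in L3 and 12.6 at rank 111 in the young adult. At daf-12, the receptor for dafachronic acids that couples nutrition to stage transitions, the strongest peak had folds of 9.15 and 8.07, and the L3 peak of 823 bp was met by a young adult peak of 411 bp and a weaker one next to it. The 2 regions at C54G6.2 had folds of 5.98 and 5.66 in L3 and 4.13 and 3.75 in the young adult, and ranks went from 1867 to 3439 and from 2126 to 4125.

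The wider loci of cav-1, daf-12 and kin-1 held few peaks each, and their counts are given beside the 27.3% lost and 38.1% gained over all peaks, with nothing particular to these loci read from them. kin-1 encodes the protein kinase A catalytic subunit and has many promoters. Its window of 34.4 kb held 14 L3 and 12 young adult peaks, of which 3 were lost and 2 gained, and the 9 one-to-one pairs had summits a median of 7 bp apart. The window of daf-12, 38.4 kb, held 10 and 13 peaks with 1 lost and 3 gained, and its 8 pairs had a median distance of 11 bp. At cav-1, which encodes a caveolin, the single L3 peak was retained with summits 12 bp apart and 2 young adult peaks were gained in 4.09 kb.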

How the data were processed

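The authors mapped paired-end ATAC-seq reads to ce10 with Bowtie2 2.1.0, removed duplicates with Picard, called peaks with MACS2 on the pooled replicates of a stage, divided peaks between neighbouring summits, kept those that met a consensus rule, and removed peaks of a genomic DNA control and masked regions. The study's code for a list pooled over all stages kept peaks covered, for the greater part of their length, by peaks called on a random part of the reads; the rule for the stage lists is not given in the sources used here. The deposited fold enrichment is a ratio of the signal at the summit to the local background of that stage. The deposited -log10 q values and the display score come from the peak caller. Names of the deposited peaks run to caller number 26702 in L3, of which 11358 occur (42.5%), and to 31136 in the young adult, of which 12763 occur (41.0%), so a peak missing from a list may have been called and filtered out. Columns not assigned to a stage numbered 0.

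Peaks were paired in Python 3.11.15 with pandas 2.3.3, and lost and gained counts were checked with bedtools 2.31.1. The overlap share was 0.5. Chromosome length was the largest peak end in any list. Pairing was tested on simulated lists with known losses, gains, shifts and splits. Intervals of a median are 95% order-statistic intervals over peaks. Named peaks were the 10 strongest lost and 10 strongest gained, the 5 largest rises and falls in rank, the 3 longest runs, the peaks with most counterparts, and the regions named by the study. The comparison and these lists were chosen with earlier results of these data known. Alternatives were another overlap, equal numbers, a stricter q value, joined neighbours and a wider centre.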

Additional observations from a re-analysis of the deposited data

How the results depend on the processing

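Counts of lost and gained peaks stayed within 1.5 times of 3555 and 5776 under all 6 alternatives: lost peaks ran from 3167 with adjoining peaks joined to 4254 when a share of 0.5 of both peaks had to overlap, and gained peaks from 4206 with equal numbers by q value to 6373. With any overlap of 1 bp the median summit distance was 7 bp, the width change -5 bp, and 1426 L3 and 1407 young adult peaks were divided. With that share of both peaks required, 1 peak was divided in each direction, and with adjoining peaks joined 98 and 176 were. These follow from the rules themselves. Spacing in the young adult was 3413 bp with equal numbers by q value and 3611.5 bp by fold, and joining gave 4388 bp for L3 and 4074.5 bp for the young adult. With equal numbers by q value, lost shares were 33.1% on X, 30.7% on autosomes, 32.6% in autosome centres and 29.7% in autosome arms, and gained shares 26.3%, 33.6%, 31.1% and 34.8%, with 22.9% in the centre of X. In the weakest decile 57.8% were then lost and 63.7% gained. With the early embryo list also cut to 13040 peaks, embryonic counterparts were present for 32.0% of lost and 64.4% of shared L3 peaks. They were present for 25.4% of gained and 64.5% of shared young adult peaks. With the middle 0.5 of a chromosome as its centre, 24.9% were lost and 41.8% gained in autosome arms. The order of X and autosomes was the same with equal numbers by q value, and that of autosome centres and arms both there and with the wider centre; these orders were not measured under the other alternatives. The 10 strongest lost peaks lacked a counterpart under every alternative tried, and 8 of the 10 gained peaks did with any overlap or with joined neighbours. No paired analysis was possible because each stage is 1 pooled list, and for the same reason no replicate could be left out. The difference in sequencing depth and the consensus filter cannot be told apart from stage in these lists, and their part in weak lost and gained peaks was not tested.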
